A study of Mus musculus with 32 samples.

Results

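The genes described here mark the projection neurons of the striatum: the receptors Drd2 and Adora2a, the peptide precursors Penk and Tac1, the intracellular signalling genes Ppp1r1b, Pde10a, Pde1b and Rgs9, and Syndig1l. They were chosen by name, older names included, in the tables of both tissues. Of the 9 listed genes, 8 had a row in both tables. Penk was not analysed here, and Syndig1l is listed under its older name Tmem90a. Of these 8 genes, 7 passed the detection filter, against 9568 genes tested in cortex and 9866 in striatum. Adora2a did not pass it and is given only as levels.

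The data are bead array signals of messenger RNA from cortex and striatum of the right hemisphere of male wild-type C57BL/6J mice aged 8 to 10 weeks. In the ischaemia and reperfusion groups (I/R), a suture blocked the middle cerebral artery for 2 h and was then withdrawn, and tissue was taken after 2, 8 or 24 h of reperfusion. Sham mice were given the anaesthetic and a neck incision, with no suture in the artery. Each tissue has 4 groups (sham and I/R at 2, 8 and 24 h) of 4 arrays, so 32 arrays in 8 groups. When sham tissue was taken is not stated, so I/R and time since surgery cannot be told apart against sham. The labels also do not say that each array is a separate animal, and p-values measure the spread between these arrays only.

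The median signal of an array was 70 to 88.7 units of intensity for cortex and 57.2 to 103.7 for striatum. Probes detected made up 49.8% to 54% of a cortex array and 52.3% to 55.2% of a striatum array. The signal of a member rested on 21 to 59 beads per array. Levels below are background-corrected, quantile-normalized log2 intensities, so a difference of 1 is a 2-fold change. They compare 1 probe between arrays and say nothing of which gene is more abundant. A difference was called at an adjusted p under 0.05. Each position on a slide held 1 kind of group (sham at A or E, 2 h at F, 8 h at G and 24 h at H), so position and group cannot be told apart. No slide held arrays of both tissues, so tissue and slide cannot be told apart where the tissues are compared.

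Spiny projection neurons are the main neuron type of the striatum and release GABA onto the pallidum and the midbrain. Those of the indirect pathway carry the dopamine receptor Drd2, the adenosine receptor Adora2a and the enkephalin precursor Penk. Those of the direct pathway carry the dopamine receptor Drd1 and the substance P precursor Tac1. Both kinds hold a dense machinery for cyclic nucleotide signalling, in which dopamine and adenosine receptors raise or lower cAMP and phosphodiesterases break it down. In the model used here the blocked artery supplies the lateral striatum and the overlying cortex. In bulk tissue, fewer cells of a type and less RNA per cell cannot be told apart.

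The sham groups show what each tissue piece held without I/R. None of the 7 members differed between sham striatum and sham cortex (0 of 7 called by limma, against 26.6% of all genes called either way). At an unadjusted p under 0.05 the count was also 0 of 7, while 3768 of the 10080 genes tested in the fit of both tissues passed it. The differences ran from -0.06 for Ppp1r1b to 0.51 for Syndig1l, with a median of 0.29, against 0.00 over all genes. Pde10a, a phosphodiesterase of cAMP and cGMP with very high levels in projection neurons, was at 8.30, 8.48, 7.56 and 7.27 in replicates 1 to 4 of sham striatum, against 7.47, 7.42, 7.66 and 7.92 in sham cortex. The 2 groups overlapped, and the difference was 0.29 (95% interval -0.50 to 1.07). For Drd2 the interval was -0.36 to 1.02 and for Tac1 -0.33 to 1.29, so differences above 2-fold in favour of striatum are inside both intervals. Sham striatum itself had 2 high arrays (replicates 1 and 2) and 2 low ones (replicates 3 and 4): the mean level of the 7 members lay 0.42 and 0.35 from its sham mean in the first pair and -0.41 and -0.37 from it in the second. Before normalization, replicate 1 had the lowest deposited signal of these arrays for each of the 7 members. Drd2, for example, was at 214.6 units there, against 333 to 478.3 on the others. Replicate 1 also had the lowest median signal of all arrays (57.2 units), so its place in the high pair rests on normalization.

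Genes of other cells separated the tissues clearly. For comparison, 26.6% of all genes were called either way between the sham tissues. Of 20 tested genes of cortical excitatory neurons, 14 were lower in sham striatum and 0 higher, with a median of -0.86. Fezf2, a transcription factor of deep-layer projection neurons, averaged 5.92 in sham striatum and 8.62 in sham cortex (-2.71 ± 0.32 SE, adjusted p = 2.47e-07). Tbr1 (-2.44 ± 0.39, adjusted p = 2.43e-05) and the vesicular glutamate transporter Slc17a7 (-2.09 ± 0.35, adjusted p = 5.56e-05) were lower as well. Of 18 genes of thalamus, hypothalamus, pallidum and midbrain, 13 were higher in sham striatum and 0 lower, with a median of 2.10; the dopamine transporter Slc6a3 averaged 9.55 in sham striatum and 4.68 in sham cortex. Of 28 other genes of striatal projection neurons, 3 were higher in sham striatum (Isl1 by 1.53, Foxp2 by 0.60 and Gad1 by 0.54) and 1 was lower (Rgs14, -0.96), with a median of -0.01. Checked against these markers, the pieces labelled cortex had the higher levels of cortical genes, while none of the members was called higher in the pieces labelled striatum. Which part of the brain each piece included is not stated in the labels, and its part in the members' levels was not tested.

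**Figure D1:**
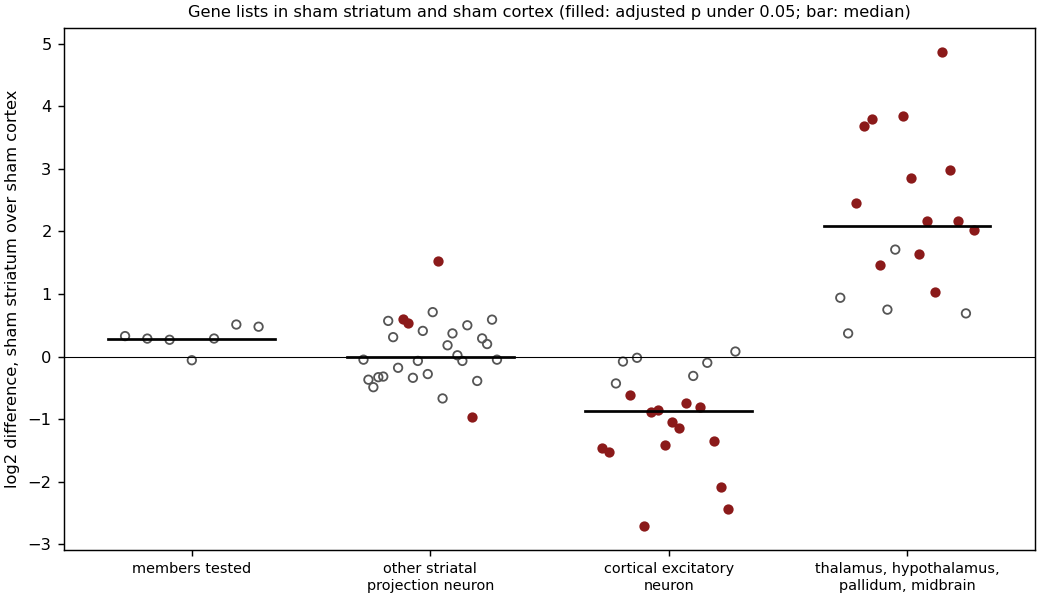
Log2 differences of sham striatum over sham cortex for single genes (points, filled where adjusted p was under 0.05) in 4 gene groups, with the median of each group as a bar. The 7 members lie between -0.06 and 0.51 with no call, while 14 of 20 cortical excitatory neuron genes are called lower and 13 of 18 thalamic, hypothalamic, pallidal and midbrain genes are called higher.

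In cortex 24 h after reperfusion, 5 of the 7 members fell relative to sham: Drd2, Pde10a, Pde1b, Rgs9 and Syndig1l (limma, adjusted p under 0.05). Of all 9568 genes, 7.15% were called lower in this comparison. All 7 members were negative (55.5% of all genes), with a median of -1.29, against -0.03 over all genes. For the 5 called members the 4 arrays at 24 h all lay below the 4 sham arrays, a pattern that 8.88% of all genes shared. The sham arrays used here are also those of the 2 h and 8 h comparisons.

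Drd2, the inhibitory dopamine receptor of the indirect pathway, was at 5.74, 7.45, 6.20 and 6.61 in replicates 1 to 4 of cortex at 24 h, against 7.68, 7.50, 8.03 and 7.94 in sham cortex. Replicate 2 at 24 h lay just under the lowest sham array, and the other 3 lay well below it. Drd2 fell by 1.29 (± 0.32 SE, a 2.44-fold lower level, adjusted p = 0.0137). The deposited signals before normalization were 89.1 to 204 intensity units at 24 h and 196.9 to 289.6 in sham, which overlap slightly.

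Adora2a, the adenosine receptor found beside Drd2 on indirect pathway neurons, was not detected on any of the 16 cortex arrays. In striatum it was detected on 1, 0 and 1 of 4 arrays at 2, 8 and 24 h, against 2 of 4 in sham. Its striatal levels at 24 h were 4.51, 4.87, 4.57 and 5.31, against 5.53, 5.38, 4.75 and 4.91 in sham. Those values sit near background, so no fold change is given for it.

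Tac1, the precursor of substance P in direct pathway neurons, was at 8.15, 9.86, 8.88 and 9.62 in cortex at 24 h, against 9.82, 9.80, 10.62 and 10.04 in sham. Replicate 2 at 24 h lay among the sham arrays, so the groups overlapped. Its difference of -0.94 ± 0.33 did not pass the threshold (adjusted p = 0.0602).

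Among the signalling genes, Pde10a was at 5.67, 7.18, 6.13 and 6.22 in cortex at 24 h, against 7.47, 7.42, 7.66 and 7.92 in sham. Each array at 24 h was below each sham array, and Pde10a fell by 1.31 (± 0.27, 2.49-fold lower, adjusted p = 0.00588). Pde1b, a phosphodiesterase activated by calcium and calmodulin, was at 10.32, 11.43, 11.06 and 11.15 at 24 h, against 11.63, 11.74, 11.89 and 11.96 in sham. Its decrease was smaller but the groups were also apart (-0.81 ± 0.19, adjusted p = 0.0102). Rgs9, which speeds the switching off of G proteins downstream of dopamine receptors, was at 8.44, 10.10, 8.68 and 10.02 at 24 h, against 10.51, 10.51, 10.86 and 10.91 in sham. It had 2 arrays far below sham and 2 arrays closer to it, and fell by 1.39 (± 0.34, 2.62-fold lower, adjusted p = 0.0136).

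Ppp1r1b encodes a phosphoprotein that inhibits a protein phosphatase once protein kinase A has phosphorylated it. Its brightest probe was at 11.05, 11.53, 10.49 and 11.63 in cortex at 24 h, against 11.45, 11.49, 11.67 and 11.61 in sham, and its difference of -0.38 ± 0.24 was not called (adjusted p = 0.294). Its 3 probes were all negative but fell on different sides of the threshold, and the difference between probes was not tested. With every detected probe tested as a row of its own, probe ILMN_1253473 was lower at 24 h (6.14 ± 0.29 at 24 h and 6.91 ± 0.21 in sham, SD, n = 4 each; -0.77 ± 0.23 SE, adjusted p = 0.0342 by limma) and ILMN_2651660 was not called (-0.45 ± 0.22, adjusted p = 0.176).

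Syndig1l, a relative of a synapse differentiation protein and enriched in the striatum, was at 5.38, 7.46, 6.55 and 6.91 in cortex at 24 h, against 7.70, 8.13, 8.15 and 8.28 in sham. Replicate 1 stood lowest at 24 h, and no array overlapped with sham. Syndig1l fell by 1.49 (± 0.34, 2.81-fold lower, adjusted p = 0.0102), the third lowest difference of the 9568 genes tested in cortex. The decreases of Rgs9, Pde10a and Drd2 ranked 5, 9 and 11 from the lowest.

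**Figure D2:**
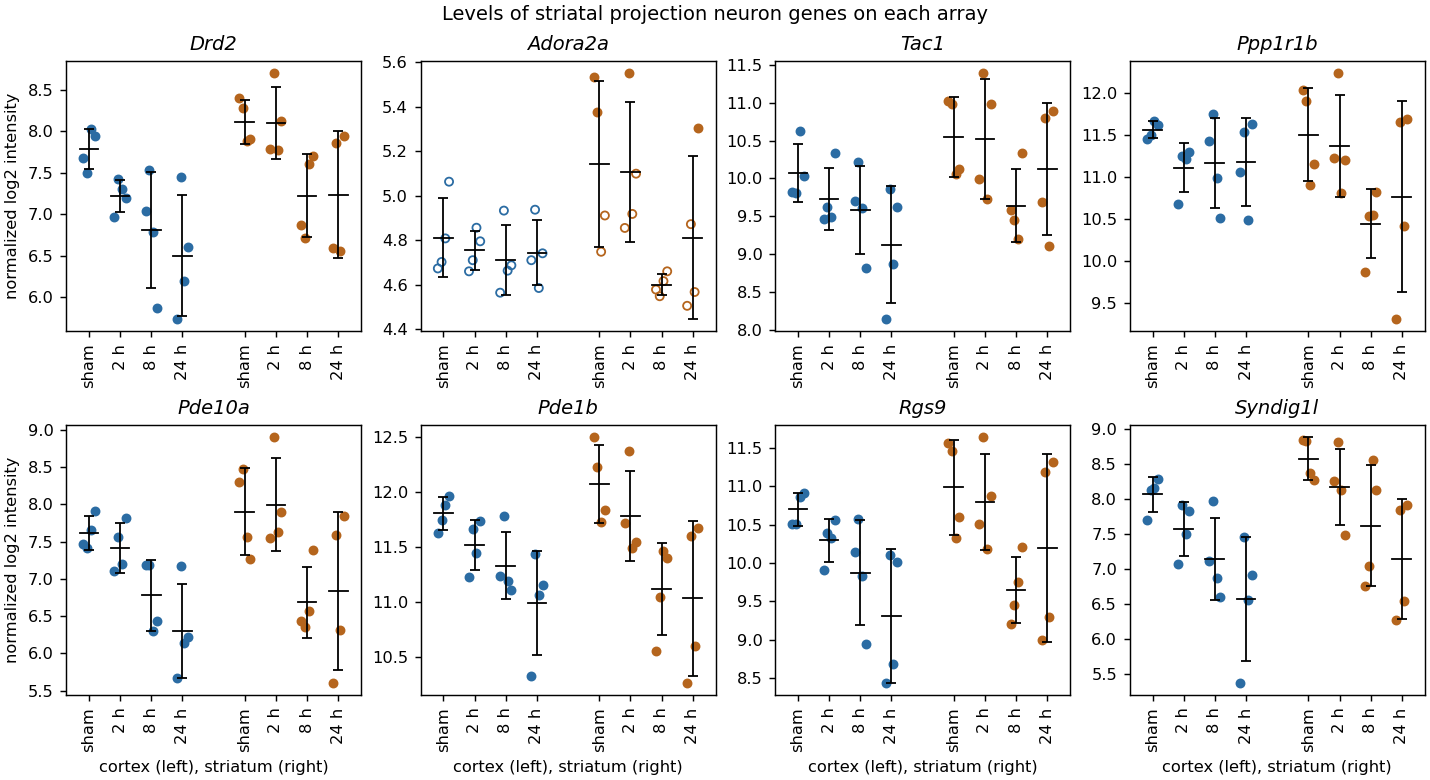
Normalized log2 intensity of 8 members on each array in cortex (blue) and striatum (brown), with open circles for arrays on which the probe was not detected and black bars for mean and SD (n = 4). In cortex the 24 h arrays of Drd2, Pde10a, Pde1b, Rgs9 and Syndig1l all lie below the sham arrays, and in striatum the 24 h arrays split into 2 high and 2 low ones.

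At 2 h in cortex, 0 of 7 members were called (limma), against 0.606% of all genes called lower. At an unadjusted p under 0.05 the count was also 0, while 1476 of 9568 genes passed it. All 7 differences were negative (52.6% of all genes), between -0.57 for Drd2 and -0.20 for Pde10a. Drd2 was at 6.97, 7.42, 7.30 and 7.19 at 2 h, below each of its sham arrays, yet its difference of -0.57 ± 0.32 had an adjusted p of 0.411. Ppp1r1b was also below each sham array at 2 h (10.67, 11.25, 11.21 and 11.30), with a difference of -0.45 ± 0.24 and an adjusted p of 0.382. These 2 of 7 compare with 7.45% of all genes whose groups lay apart in this direction. Replicate 1 at 2 h was the lowest of its group for all 7 members.

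At 8 h in cortex, 0 of 7 were called (limma), against 3.4% of all genes called lower, while all 7 were negative (52.2% of all genes) and 5 of 7 passed an unadjusted p under 0.05 (2249 of the 9568 genes did). The differences were -0.98 for Drd2, -0.92 for Syndig1l, -0.84 for Pde10a, -0.83 for Rgs9, -0.48 for Tac1, -0.48 for Pde1b and -0.39 for Ppp1r1b. Drd2 was at 7.03, 7.54, 6.79 and 5.87, with replicate 2 inside the sham range and replicate 4 the lowest (adjusted p = 0.0685). Pde10a was at 7.19, 7.18, 6.30 and 6.44, below each sham array (adjusted p = 0.0685), the 1 member of 7 whose groups lay apart at 8 h (8.14% of all genes). The count at 8 h was 4 with the 2 compared groups fitted alone (Drd2, Pde10a, Pde1b and Syndig1l), 4 with the replicate number as a block, 3 with slide as a block, 3 from the deposited tissue tables, 2 with array weights and 1 without 8 h replicate 2. Between 24 h and 2 h in cortex, Pde10a was lower at 24 h (-1.12 ± 0.27, adjusted p = 0.0115), the 1 call among 7 members (7.14% of all genes called lower). That count was 3 without 2 h replicate 1, 5 without 24 h replicate 2 and 2 without 24 h replicate 4. It was 5 with array weights, and 4 with slide or with the replicate number as a block. For these alternative fits, and those at 8 h, the share of all genes called was not counted.

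**Figure D3:**
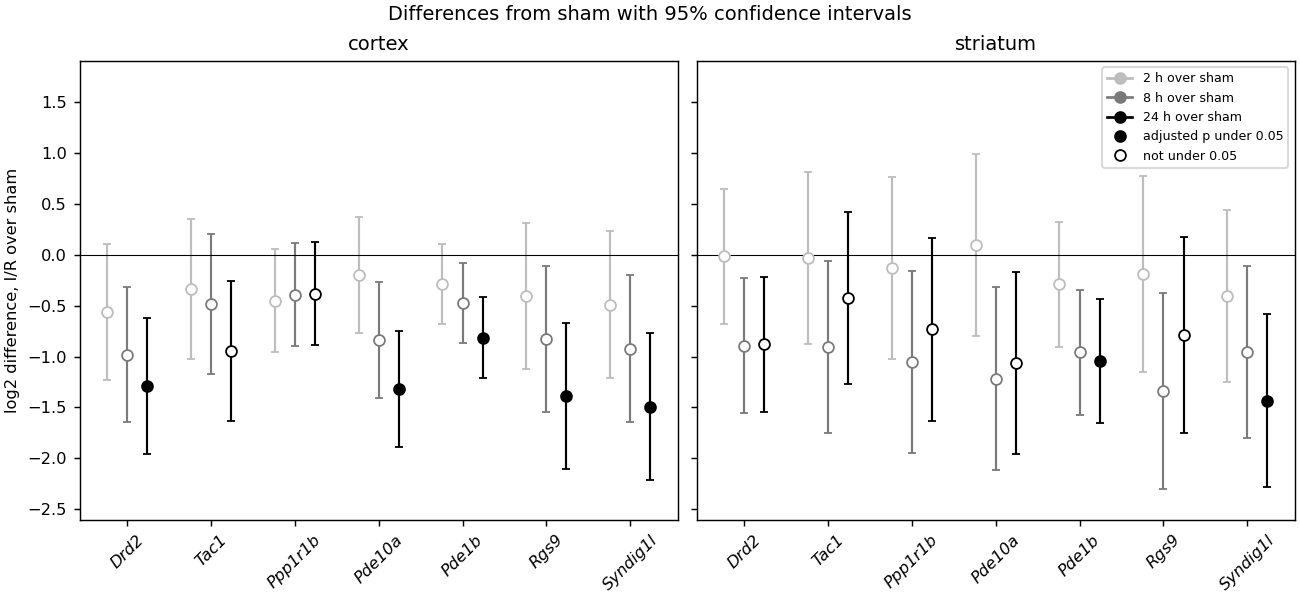
Log2 differences of I/R over sham at 2, 8 and 24 h with 95% confidence intervals from the limma fit, for the 7 tested members in cortex (left) and striatum (right), with filled points where adjusted p was under 0.05. In cortex 5 members are called at 24 h, and in striatum Pde1b and Syndig1l are called at 24 h.

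In striatum at 24 h, 2 of the 7 members fell relative to sham, Pde1b and Syndig1l (limma), against 8.24% of all 9866 genes called lower. All 7 differences were negative (52.3% of all genes), with a median of -0.88, against -0.02 over all genes. Pde1b was at 10.26, 11.60, 10.59 and 11.67 in striatum at 24 h, against 12.50, 12.23, 11.73 and 11.84 in sham. The groups did not overlap, though replicates 2 and 4 lay just under the lowest sham array, and Pde1b fell by 1.04 (± 0.29, 2.06-fold lower, adjusted p = 0.0213). Syndig1l was at 6.28, 7.84, 6.54 and 7.92 at 24 h, against 8.85, 8.83, 8.37 and 8.26 in sham, and fell by 1.43 (± 0.40, 2.7-fold lower, adjusted p = 0.0221). The 2 members whose groups lay apart compare with 11.9% of all genes. Both calls were lost without sham replicate 1, sham replicate 2, 24 h replicate 1 or 24 h replicate 3, with adjusted p between 0.0525 and 0.0792. Sham replicate 1 was the array with the lowest median signal before normalization (57.2 units). Without 24 h replicate 4 the count was 4, and with slide as a block it was also 4, with Drd2 and Pde10a added.

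The 5 other members were not called at 24 h in striatum. Rgs9 was at 8.99, 11.18, 9.29 and 11.31, against 11.57, 11.46, 10.33 and 10.59 in sham. Replicates 1 and 3 lay below every sham array and replicates 2 and 4 within the sham range, and the difference of -0.79 ± 0.46 was not called (adjusted p = 0.240). Ppp1r1b had the same split, with 9.31, 11.65, 10.42 and 11.68 at 24 h and 12.03, 11.91, 10.91 and 11.15 in sham (-0.73 ± 0.43, adjusted p = 0.242). The differences of Pde10a (-1.06 ± 0.43, adjusted p = 0.0892), Drd2 (-0.88 ± 0.32, adjusted p = 0.0604) and Tac1 (-0.42 ± 0.40, adjusted p = 0.488) were not called either.

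At 8 h in striatum, 0 of 7 members were called (limma), against 1.78% of all genes called lower, while all 7 were negative (48.8% of all genes) and 7 of 7 passed an unadjusted p under 0.05 (1963 of 9866 genes did). The differences ran from -1.34 for Rgs9 to -0.89 for Drd2, with a median of -0.96. Rgs9 was at 9.20, 9.45, 9.75 and 10.20 at 8 h, below each of its sham arrays (-1.34 ± 0.46, adjusted p = 0.107). Drd2 (6.87, 6.71, 7.61 and 7.70), Ppp1r1b (9.87, 10.53, 10.55 and 10.82) and Pde1b (10.55, 11.05, 11.46 and 11.40) were also below each sham array, so the groups of 4 members lay apart, against 7.1% of all genes. Pde1b had the lowest adjusted p of the 7 (0.0761). Fitting only sham and 8 h called 6 members, all but Syndig1l, and the share of all genes called in that fit was not counted. At 2 h in striatum 0 of 7 were called (limma), against 0.0608% of all genes called lower. At an unadjusted p under 0.05 the count was also 0 (1024 of 9866 genes passed). The differences at 2 h lay between -0.40 for Syndig1l and 0.09 for Pde10a. Between 24 h and 2 h in striatum 0 of 7 were called (8.6% of all genes called lower). At an unadjusted p under 0.05, 4 of 7 passed (3237 of 9866 genes did). The number called was 3 without 24 h replicate 2 and 4 without 24 h replicate 4. It was 1 with slide or with the replicate number as a block.

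The responses of the 2 tissues were compared directly as the difference of their I/R effects. At 24 h, 0 of 7 members differed (limma), against 1.76% of all genes called either way. At an unadjusted p under 0.05 the count was also 0, while 1991 of 10080 genes passed it. The differences, striatum minus cortex, ran from -0.35 for Ppp1r1b to 0.60 for Rgs9. For Rgs9 the 95% interval was -0.66 to 1.86 and for Syndig1l -1.11 to 1.22, so a response that differs 2-fold between the tissues is inside both. At 2 h and 8 h the counts were also 0 of 7 (0% and 0.0198% of all genes called either way), with differences from -0.00 to 0.55 at 2 h and from -0.66 to 0.09 at 8 h.

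The members moved together across arrays. Over the 16 arrays of a tissue, Pearson's r between pairs of members was 0.53 to 0.99 in cortex (median 0.89, 21 pairs) and 0.56 to 0.97 in striatum (median 0.91). With group means removed the medians were 0.82 in cortex and 0.89 in striatum. The points of a pair share the array, its RNA and its normalization. Pde1b and Syndig1l were the closest pair in cortex (0.99), and Ppp1r1b and Pde10a the least close (0.53). In striatum Tac1 and Syndig1l were the least close (0.56).

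The mean level of the 7 members sets the arrays in order. Relative to the sham mean of the tissue, replicates 1 to 4 at 24 h lay at -1.84, -0.37, -1.37 and -0.78 in cortex and at -1.85, -0.17, -1.55 and -0.06 in striatum. Replicates 1 and 3 were the lowest at 24 h in both tissues; whether a number joins the tissues of 1 animal is not stated. At 8 h in striatum the 4 arrays lay at -1.49, -1.30, -0.86 and -0.53, and at 2 h replicate 2 lay at 0.62.

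Each tissue was run on its own 4 slides, of which 3 held sham arrays. At 24 h in cortex the median difference of the members from the sham arrays of the same slide was -0.89, -0.58 and -1.78 on slides 1, 3 and 4, with 6, 7 and 7 of 7 members negative. At 24 h in striatum these medians were -1.24, 0.03 and -2.52, with 7, 3 and 7 of 7 negative, so the direction did not hold on slide 3. At 8 h in striatum they were -0.60, -0.88 and -1.95, with 6, 7 and 7 negative.

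**Figure D4:**
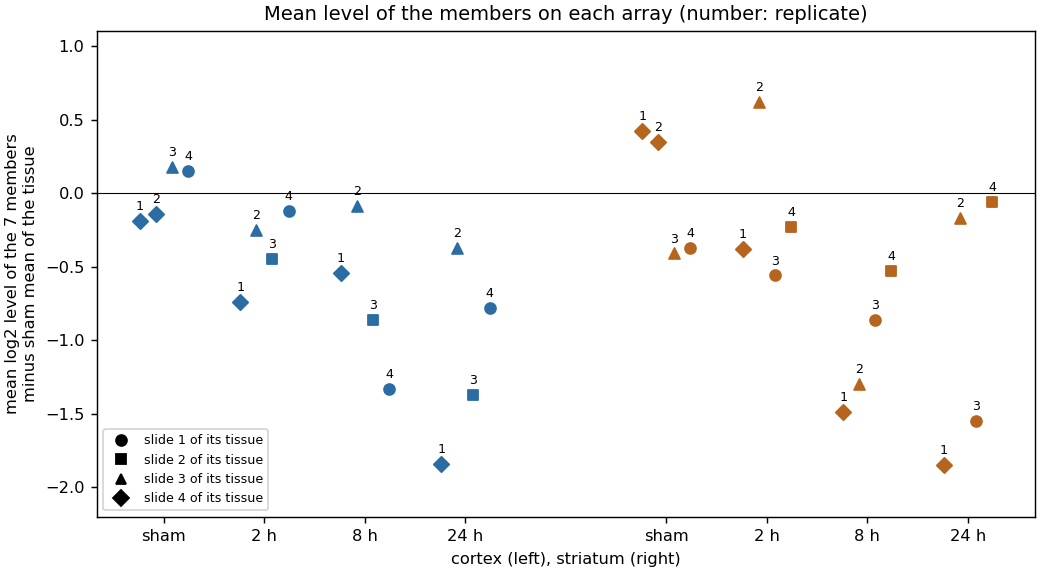
Mean log2 level of the 7 tested members on each array minus the sham mean of its tissue, with the replicate number above each point and its slide as the marker shape. In striatum at 24 h replicates 1 and 3 lie at -1.85 and -1.55 and replicates 2 and 4 at -0.17 and -0.06, and the sham arrays of striatum fall into 2 pairs.

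By similarity to the mean standardized level of the members over 16 arrays, the nearest genes outside the list in cortex were Ido1 (r = 0.962), Drd1 (0.955), Rarb (0.947), Scn4b (0.942) and Gng7 (0.931). In striatum they were Actn2 (0.984), Rxrg (0.969), Phactr1 (0.960), Ido1 (0.955) and Drd1 (0.954). These values are a ranking over all tested genes and carry no test.

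Other genes known from striatal projection neurons were counted as a list. For comparison, 7.15% of all genes were called lower in cortex and 8.24% in striatum at 24 h. In cortex at 24 h 10 of 28 were lower and 0 higher, with a median of -0.58. Ido1, a tryptophan-degrading enzyme, averaged 6.39 at 24 h and 8.10 in sham (-1.71 ± 0.40, adjusted p = 0.0105). Scn4b, a sodium channel subunit (-1.32 ± 0.32), Gng7, a G protein subunit that couples receptors to adenylyl cyclase in these neurons (-1.14 ± 0.29), and Drd1, the dopamine receptor of the direct pathway (-1.07 ± 0.34), fell as well. The count was 6 without 24 h replicate 1 and 17 without 24 h replicate 2. In striatum at 24 h 1 of 28 was lower, Tmem158 (-1.15 ± 0.35, adjusted p = 0.0307), with a median of -0.42; Ido1 (-1.39 ± 0.58, adjusted p = 0.101) and Drd1 (-0.84 ± 0.55, adjusted p = 0.296) were not called there. That count was 0 without sham replicate 1, sham replicate 2, 24 h replicate 1 or 24 h replicate 3, and 5 without 24 h replicate 4. At 8 h 2 of 28 were lower in cortex (Scn4b and Bcl11b) and 1 in striatum (Cnr1), with medians of -0.47 and -0.84. The shares of all genes called lower at 8 h were 3.4% and 1.78%.

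Of 21 tested genes of dopamine, adenosine and cAMP signalling, which share members with the list before, 7 were lower and 0 higher in cortex at 24 h. Beside Gng7 and Drd1 these included Arpp21 (-0.83 ± 0.17), a cAMP-regulated phosphoprotein of striatal neurons, and Rgs8 (-0.77 ± 0.13), another regulator of G protein signalling. In striatum at 24 h 3 of 21 were lower (Rgs7bp, a partner of Rgs proteins, by -0.70; Cdk5, a kinase that phosphorylates Ppp1r1b protein, by -0.54; and Prkaca, the catalytic subunit of protein kinase A, by -0.53) and 1 was higher (Pde4b, another cAMP phosphodiesterase, by 0.55). Of the neuropeptide genes, 2 of 12 were lower in cortex at 24 h (Cartpt by -0.82 and the precursor-cleaving enzyme Pcsk2 by -0.55). In striatum 1 of 14 was lower (the opioid receptor Oprk1, -0.63). The shares of all genes called lower at 24 h were 7.15% in cortex and 8.24% in striatum, and the neuropeptide count in striatum is near that share.

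Genes of other cells were measured beside these counts. The shares of all genes called lower at 24 h were 7.15% in cortex and 8.24% in striatum. The share called higher is not given here. Of 20 cortical excitatory neuron genes, 0 were called in cortex at 24 h, with a median of -0.13, and leaving out 24 h replicate 2 gave 5. In striatum 2 of 18 of them were higher at 24 h (among them Bhlhe22 by 0.85) and 0 lower; the count was 0 without sham replicate 1 or 3 or 24 h replicate 3 or 4, and 1 without sham replicate 4 or 24 h replicate 2. Of pan-neuronal genes, 3 of 13 were lower in cortex at 24 h, among them Map2 (-0.45 ± 0.08), and 3 of 14 were lower and 1 higher in striatum. Of 18 thalamic, hypothalamic, pallidal and midbrain genes, 3 were lower in striatum at 24 h (Tnnt1 by -0.94, Ramp3 by -0.88 and Tcf7l2 by -0.35). In cortex 12 of them were tested, with 1 called lower and 1 higher at 24 h. There 10 of the 12 were negative, with a median of -0.43 (-0.28 at 2 h and -0.37 at 8 h).

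Markers of immune cells and blood moved with the same contrasts. For comparison, 7.15% of all genes in cortex and 8.24% in striatum were called lower at 24 h. At 8 h these shares were 3.4% and 1.78%. The share called higher is not given here, so the counts of higher genes have no comparison. Of 13 microglia and macrophage genes, 5 were higher and 1 lower in cortex at 24 h, with Lgals3 up by 4.03, and 4 were higher and 0 lower in striatum. The list went both ways at 24 h: 5 of 13 differences in cortex and 6 of 13 in striatum were negative, with medians of 0.34 and 0.07. At 8 h, 4 were lower and 1 higher in cortex, and 3 were lower and 1 higher in striatum. Gpr34 was among the lower genes at 8 h (-1.38 in cortex and -1.29 in striatum). The mean log2 level of the list was 7.70 to 8.78 at 24 h and 7.34 to 7.55 in sham cortex, and 7.65 to 8.26 at 24 h and 7.33 to 7.69 in sham striatum. Blood genes (3 tested) had mean levels of 6.29 to 12.65 at 24 h and 4.97 to 5.27 in sham cortex, and 5.67 to 9.74 at 24 h and 5.32 to 6.38 in sham striatum. Across the 16 arrays the microglia list had r = -0.73 with the mean of the members in cortex and -0.36 in striatum. With group means removed these values were -0.55 and -0.39. Of 8 endothelial genes, 4 in cortex and 3 in striatum were lower at 8 h, and 4 in cortex and 1 in striatum were higher at 24 h. Of 10 astrocyte genes, 2 were higher in cortex at 24 h, and 1 was higher and 1 lower in striatum. Of oligodendrocyte genes, 2 of 8 were higher in cortex and 3 of 9 were lower in striatum at 24 h, with medians of 0.15 and -0.36. In cortex 3 of the 8 were negative. All 9 were higher in sham striatum than in sham cortex. Of interneuron genes, 1 of 9 was lower in cortex and 0 of 11 were called in striatum at 24 h. The part of these cells in the members' decrease was not tested.

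**Figure D5:**
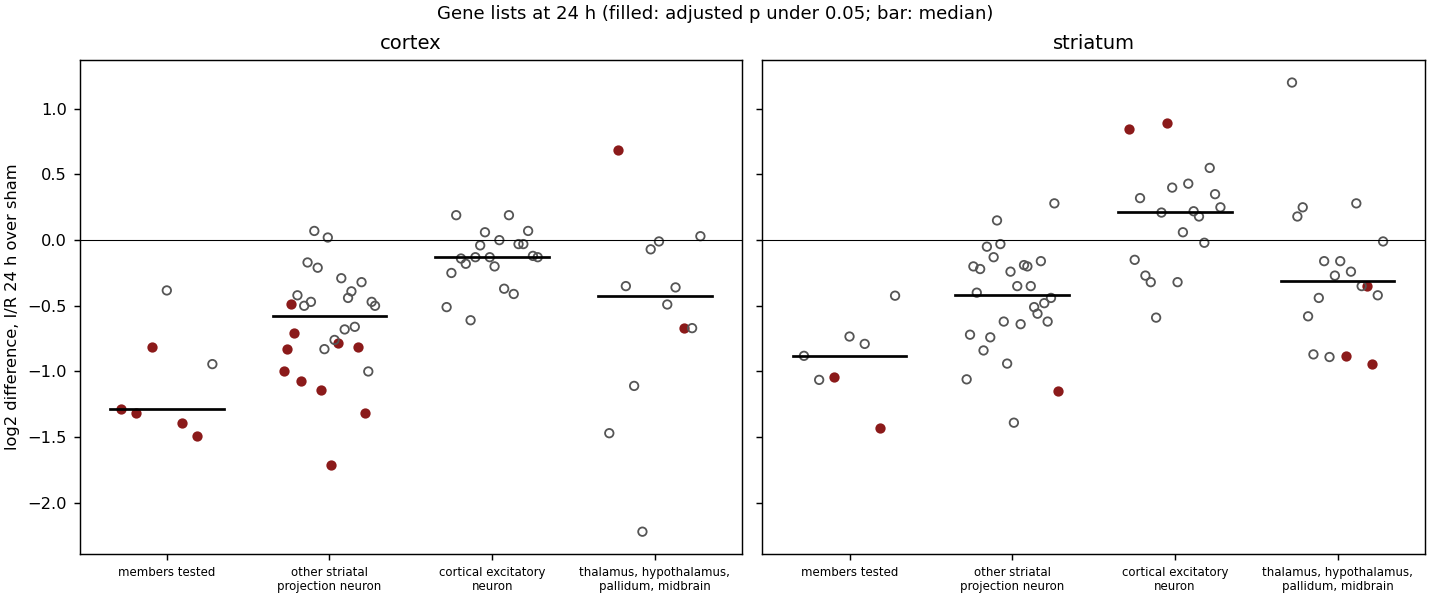
Log2 differences of I/R 24 h over sham in cortex (left) and striatum (right) for single genes of 4 groups (filled where adjusted p was under 0.05), with the median of each group as a bar. In cortex the medians are -1.29 for the members, -0.58 for other striatal projection neuron genes and -0.13 for cortical excitatory neuron genes. The median of the thalamic, hypothalamic, pallidal and midbrain genes in cortex is -0.43.

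The sequence before the start site was read for the members that have one in RefSeq (GRCm38.p6), since these genes varied together across arrays. Of the 9 genes, 5 had a window of 250 bases before a start, 8 windows in all (Tac1, Drd2, Rgs9, 2 for Pde10a and 3 for Pde1b). Those of Pde1b (first start), Rgs9 and Tac1 are shown as examples. Pde1b and Rgs9 were called lower in cortex at 24 h, and Tac1, the peptide precursor, was not. The Tac1 difference (-0.94) was larger in size than that of Pde1b (-0.81), and whether the genes differ in response was not tested. Capitals mark matches on either strand to 4 short motifs: the TATA box TATAAA, the GC box GGGCGG, the cAMP response element half-site TGACG and the forkhead motif TGTTTAC.
Pde1b, chr15:103502784-103503033, plus strand: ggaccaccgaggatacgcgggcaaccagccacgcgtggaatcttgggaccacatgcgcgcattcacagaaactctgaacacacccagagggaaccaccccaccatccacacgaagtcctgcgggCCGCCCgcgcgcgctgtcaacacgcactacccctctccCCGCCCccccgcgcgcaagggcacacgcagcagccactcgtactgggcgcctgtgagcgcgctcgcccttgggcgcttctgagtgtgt
Rgs9, chr11:109298182-109298431, minus strand: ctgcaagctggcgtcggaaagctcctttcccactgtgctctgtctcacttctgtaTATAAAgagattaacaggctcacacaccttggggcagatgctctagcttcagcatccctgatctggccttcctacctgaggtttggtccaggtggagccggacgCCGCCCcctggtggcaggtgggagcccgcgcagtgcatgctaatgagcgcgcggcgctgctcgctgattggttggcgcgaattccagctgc
Tac1, chr6:7554811-7555060, plus strand: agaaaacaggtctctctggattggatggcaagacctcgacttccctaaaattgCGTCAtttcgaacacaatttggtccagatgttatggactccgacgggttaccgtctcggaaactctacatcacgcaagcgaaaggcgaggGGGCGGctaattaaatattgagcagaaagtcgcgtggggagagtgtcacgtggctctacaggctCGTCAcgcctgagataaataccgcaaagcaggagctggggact

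The GC box occurred in 5 of the 8 windows (1 window for each of the 5 genes), against 32.7% of 32851 mouse windows of the same length. The TATA motif occurred in the Rgs9 window only, against 12.4% of all windows, and the half-site of the cAMP response element in the Tac1 window only, with 2 matches, against 17.8%. The forkhead motif was found in 1 window, the second of Pde1b, against 3.2%. The full element TGACGTCA was found in 0 of the 8 windows and in 1.5% of all windows. A match describes letters anywhere in the window, at any distance from the start, and says nothing about binding. The TATA match of Rgs9 lay in the part of its window far from the start.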

How the data were processed

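Bead array signals of 32 arrays were used, 4 in each of 8 groups taken from the labels. Per the file headers, the authors made the deposited intensity values with BeadStudio 3.3.7 and left them unnormalized, 1 average per probe and array. The deposited tables give detection as a fraction, read as 1 minus the detection p, and the number of beads. The whole-series table was the source of signals; 837 rows without a value were left out, as were 8 columns of 1 array that match no sample. Its replicate numbers are used here. They name other arrays than those in the sample descriptions (0 of 32 agree, while all 32 keep their group), so arrays were matched to detection and slide by identical values. For cortex probes of genes with more than 1 probe, detection was inferred from the signal by a step rule. Tried on striatum arrays, where detection is given per probe, this rule changed the call of at most 0.104% of such probes.

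Signals were background-corrected (limma 3.58.1 in R 4.3.3, normal-exponential model from detection p, offset 16), quantile-normalized over all arrays and put on the log2 scale. Kept genes were detected (p under 0.05) on each of the 4 arrays in 1 or more fitted groups, and its brightest probe stands for it; this filter favours genes high in some group. Of 25697 probes, 25313 matched a current symbol. Each tissue was fitted over its 4 groups, and comparisons between tissues over all 32 arrays, with lmFit and eBayes with trend, 2-sided, adjusted by Benjamini-Hochberg over all genes tested in a comparison. In all, 12 comparisons were made; the code was tested on simulated data. The number of arrays limits the precision.

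The members and all gene lists were chosen with earlier results of these data known. Named genes are all members, at most 4 called genes per list with the largest differences, the genes the tissue check turns on, and the 5 most similar genes per tissue. The alternatives were background, offset, scaling, filter, probe choice, source table, groups in the fit, array weights, trend, slide and replicate blocks, and each array left out. Not every called gene of a list is reported here by name.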

Additional observations from a re-analysis of the deposited data

Results flagged for a closer look

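Of 64 member and group combinations of 4 arrays, 1 had an array far from the others: Ppp1r1b in cortex at 2 h, where replicate 1 was at 10.67 and the next lowest array at 11.21. Its gap was 0.856 of the range of the group, above Dixon's critical value for 4 arrays. Chance gives about 1 such case in 20 groups. That array was the lowest of its group for all 7 members.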

How the results depend on the processing

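The 5 calls in cortex at 24 h held under all 20 alternatives run for them, with 5 to 6 members called. Their sizes moved with the setting: Drd2 ran from -1.61 to -0.61, Pde10a from -1.61 to -0.55 and Syndig1l from -1.79 to -0.81. Rgs9 ran from -1.65 to -1.1 and Pde1b from -0.96 to -0.59. The highest adjusted p of these alternatives was 0.0494 (limma, Drd2). Other counts depended on the setting, and the share of all genes called was counted in the main fit only. With the compared groups alone, members called were 2 at 2 h, 4 at 8 h in cortex, 6 at 8 h in striatum and 1 between the sham tissues (Syndig1l), other striatal genes 6 in cortex at 24 h and 11 between sham tissues. With array weights, members called were 2 at 8 h in cortex, 1 at 8 h in striatum and 5 for cortex 24 h over 2 h; other striatal genes were 0 in striatum at 24 h and 8 between sham tissues, and cortical excitatory genes 2 in cortex at 24 h. With slide as a block, members called were 3 at 8 h and 4 for 24 h over 2 h in cortex, and 4 at 24 h and 1 for 24 h over 2 h in striatum; other striatal genes were 2 in striatum and cortical excitatory genes 1 in cortex at 24 h. The deposited tissue tables gave 3 members at 8 h in cortex, and median scaling gave 1 cortical excitatory gene in cortex and 1 in striatum at 24 h.

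Within a tissue, I/R arrays of the same replicate number lay on the same slide, while sham arrays did not all follow this. No label gives the number as a shared animal. Correlations of same-numbered arrays ran from -0.18 to 0.37 in cortex (12 of 24 above 0.1, 12 best with their own number). They ran from -0.27 to 0.21 in striatum (6 of 24 above 0.1, 5 best with their own number). Between the tissues, with each cortex group set against each striatum group, they ran from -0.32 to 0.57 (15 of 64 above 0.1). Pairs within a tissue, and most between tissues, join different groups, so they cannot show whether a number joins tissues of 1 animal. With the replicate block, members called were 4 at 8 h and 4 for 24 h over 2 h in cortex and 1 for 24 h over 2 h in striatum, and cortical excitatory genes 1 in cortex and 1 in striatum at 24 h.

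With 1 array left out, members called were 5 to 6 in cortex and 0 to 4 in striatum at 24 h, 0 to 1 at 8 h in cortex (1 without 8 h replicate 2), 1 to 5 for cortex 24 h over 2 h (3 without 2 h replicate 1, 5 without 24 h replicate 2, 2 without 24 h replicate 4) and 0 to 4 for striatum 24 h over 2 h (3 without 24 h replicate 2, 4 without 24 h replicate 4). Other striatal genes called were 6 to 17 in cortex and 0 to 5 in striatum at 24 h, where the count was 2 without 24 h replicate 2, and 2 to 5 between sham tissues (2 without cortex sham replicate 1 or 2). Cortical excitatory genes were 0 to 5 in cortex, 0 to 2 in striatum at 24 h and 13 to 14 between sham tissues.

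No called member changed sign. The values counted here leave out the response differences between tissues at 2 h and 8 h. Of 1421 member values, 38 changed sign, in 11 uncalled differences with no adjusted p under 0.649. These were Syndig1l in the 24 h response difference (-0.06 without background correction, -0.03 with an offset of 50; -0.34 to 0.35 with 1 array left out), Ppp1r1b for cortex 24 h over 2 h (-0.04 with median scaling, -0.17 with array weights; -0.08 to 0.30) and in the 24 h response difference (0.23 with array weights; -0.66 to 0.13), Drd2 (0.02 with array weights; -0.22 to 0.09) and Pde10a (-0.11 with slide as a block; -0.21 to 0.29) in striatum at 2 h. With 1 array left out, striatum at 2 h also gave -0.42 to 0.05 for Ppp1r1b, -0.47 to 0.02 for Rgs9 and -0.32 to 0.24 for Tac1, the 24 h response difference -0.08 to 0.66 for Pde10a and -0.45 to 0.03 for Pde1b, and the sham tissues -0.24 to 0.14 for Ppp1r1b. The cause was not tested for any of these changes. Signal near background limits Adora2a.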
